A study of Mus musculus with 28 samples.

Results

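Small leucine-rich proteoglycans (SLRPs) are secreted matrix proteins with a core of leucine-rich repeats, many of which carry chondroitin, dermatan or keratan sulfate chains. Their cores bind collagen fibrils and set fibril spacing and diameter, and several also hold growth factors of the transforming growth factor beta (TGF-beta) family. In teeth, decorin and biglycan are best known from predentin and dentin, where they accompany the collagen that mineralizes after birth.

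The transcripts described here are those of 10 SLRP genes among the 52636 genes of the mouse RNAseq count table, picked out by symbol. They are the class I genes *Dcn*, *Bgn* and *Aspn*, the class II genes *Fmod*, *Lum*, *Prelp*, *Kera* and *Omd*, and the class III genes *Epyc* and *Ogn*. All 10 were found in the table, and 9 passed the filter on low counts. *Epyc* did not pass it.

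The series followed the molar labelled Molar 1 (for E15, lower first molar) of wild type C57BL/6JOlaHsd mice from the bud to the bell stage, and every library was made from the RNA of 1 tooth germ, so that epithelium, mesenchyme and the thin layer of tissue left around the germ were measured together. The stages are called E13 (bud stage), E14 (cap stage) and E16 (bell stage), labelled as embryonic days E13.5, E14.5 and E16.5, with 7 teeth each. The E14 teeth came from 6 embryos and the E16 teeth from 5, since some embryos gave a left and a right tooth. The labels give 7 embryos for the E13 teeth, and 1 E13 column of the count table names no embryo. A second table, of counts estimated by salmon, adds 6 teeth labelled E15 and is described separately. The strain has no transgene or treatment, and teeth of the same stage are the only replicates. Sides were 4 left and 3 right at E13 and at E16, but 2 left and 5 right at E14, so side was not balanced over the stages.

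The HTSeq libraries held between 17814073 and 27115729 counts on genes. Levels are CPM (counts scaled to a library of fixed size) after scaling by the trimmed mean of M values (TMM). Changes are log2 fold changes from the quasi-likelihood test of edgeR over all 19101 genes that passed the filter. Their standard error (SE) is the absolute log2 fold change divided by the square root of the F statistic of that test. A change was called at a Benjamini-Hochberg adjusted p below 0.05. In libraries of whole germs, fewer cells of a type and less RNA per cell cannot be told apart.

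The left E16 tooth of embryo 3 stood apart from the other 6 E16 teeth, and values without it are given beside the results it changed most. Without it more genes were called in every comparison, 30.4% of all genes tested in place of 19.7% from E13 to E14, 34.3% in place of 28.1% from E14 to E16 and 48.7% in place of 41.3% from E13 to E16, so the counts of members and listed genes given without it stand against these larger shares. It had the lowest total of the 21 libraries and the highest TMM factor, 1.193. The 9 dental mesenchyme markers (transcription factors such as *Msx1*, *Pax9* and *Lhx8*, and the receptor *Pdgfra*) summed to 785 CPM in this tooth and to between 1364 and 1788 CPM in the others. The 8 dental epithelium markers (keratins, *Shh* and others) summed to 1916 CPM against 3269 to 3715 CPM. Every gene of both lists passed the filter, so the labelled tissue was present in the libraries as a whole. Dental epithelium markers rose at each step, 8 of 8, while 5 of the 9 dental mesenchyme markers fell from E14 to E16 and none rose (0 also at an unadjusted p under 0.05 in edgeR and by DESeq2). The part of these shifts in the SLRP changes was not tested.

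**Figure D1:**
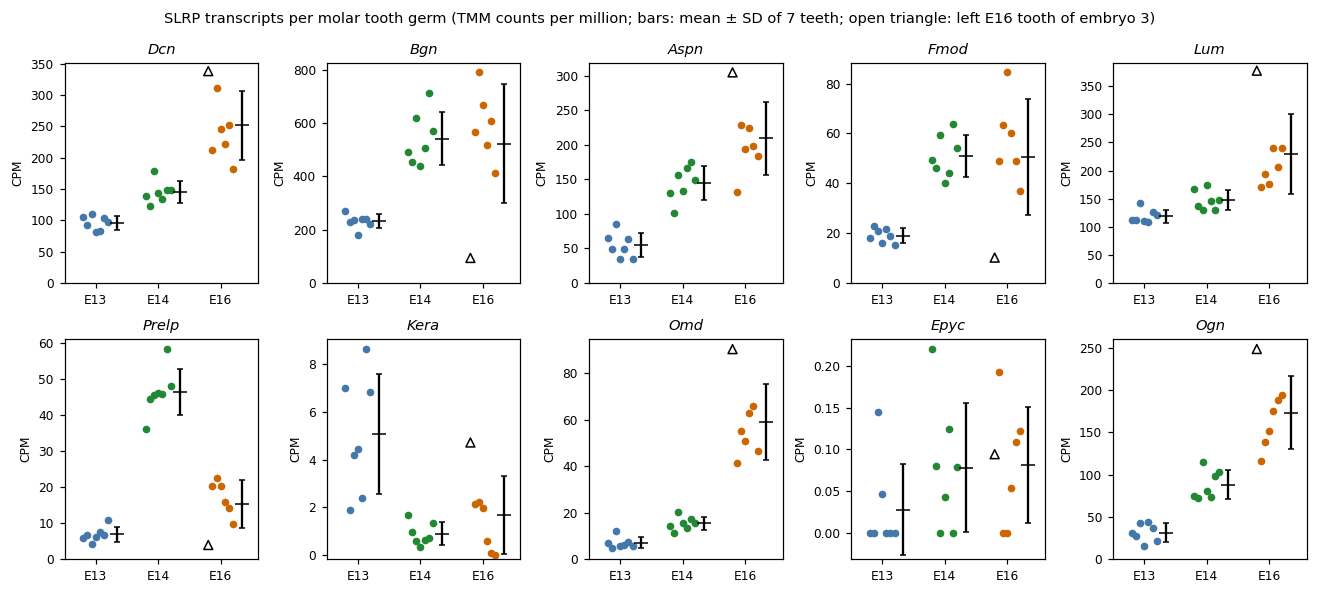
Level of each SLRP transcript, in TMM-scaled CPM, in every tooth at E13, E14 and E16. Dots are teeth, bars the mean ± SD of 7 teeth, and the open triangle the left E16 tooth of embryo 3. The triangle is the highest E16 point for *Dcn*, *Aspn*, *Lum*, *Kera*, *Omd* and *Ogn*, and the lowest for *Bgn*, *Fmod* and *Prelp*.

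From the bud to the cap stage most SLRP transcripts went up. Of the 9 tested, 7 were higher at E14 than at E13 (*Dcn*, *Bgn*, *Aspn*, *Fmod*, *Prelp*, *Omd* and *Ogn*) and *Kera* was lower, while *Lum* did not pass the test. Over all genes tested, 11.3% were called higher and 8.47% lower in the same comparison. The median log2 fold change of the 9 was 1.22, and that of all genes -0.01.

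From the cap to the bell stage the genes parted. *Dcn*, *Aspn*, *Lum*, *Omd* and *Ogn* rose further, *Prelp* fell, and *Bgn*, *Fmod* and *Kera* did not pass the test. In this comparison 15% of all genes were called higher and 13.1% lower. The median of the 9 was 0.63 (log2), and that of all genes 0.00. Over the whole interval, from E13 to E16, 8 of the 9 were higher and *Kera* was lower, where 21.6% of all genes were called higher and 19.6% lower.

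Whether a gene moved differently at the 2 steps was tested as the change from E14 to E16 minus the change from E13 to E14. This difference was called for 4 of the 9, with *Kera* above 0 and *Bgn*, *Fmod* and *Prelp* below 0. Of all genes tested, 6.84% were called above and 6.89% below. The E14 teeth enter both steps, with opposite sign.

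**Figure D2:**
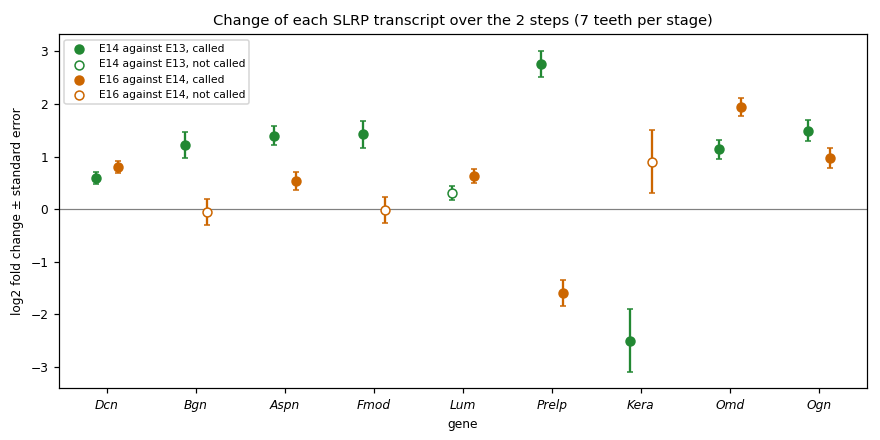
log2 fold change ± SE of the 9 tested SLRP genes from E13 to E14 (green) and from E14 to E16 (orange), 7 teeth per stage. Filled points were called and open points were not. *Prelp* has the highest point at the first step and the lowest at the second, and *Omd* rose more than any other at the second.

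Among the class I genes, decorin (*Dcn*) carries a chondroitin or dermatan sulfate chain and sits on type I collagen fibrils. Its lowest, median and highest levels were 80.8, 96.6 and 109 CPM at E13, 122, 143 and 179 CPM at E14, and 182, 245 and 338 CPM at E16. The stages did not overlap, and every tooth of a later stage was above every tooth of an earlier one. *Dcn* rose by 0.60 ± 0.11 (log2 fold change ± SE, adjusted p = 0.000539) to E14 and by 0.80 ± 0.11 (adjusted p = 8.00e-06) from E14 to E16. Without the left E16 tooth of embryo 3 the second change was 0.73. Between the steps the change differed by 0.20 ± 0.20, which was not called.

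Biglycan (*Bgn*), a close relative of decorin that usually carries more of these chains, had the highest median CPM of the group at each stage. Its lowest, median and highest levels were 181, 237 and 272 CPM at E13, 439, 507 and 713 CPM at E14, and 94.0, 567 and 791 CPM at E16. The E13 and E14 teeth did not overlap, and the 94.0 CPM of the left E16 tooth of embryo 3 lay below every E13 tooth, while the other 6 E16 teeth, from 414.5 CPM up, lay above every E13 tooth. *Bgn* rose by 1.22 ± 0.25 (adjusted p = 0.00105) to E14. From E14 to E16 the value was -0.05 ± 0.25 (adjusted p = 0.905), and it was 0.15 (adjusted p = 0.376) without that tooth. It was also above 0 without the left E16 tooth of embryo 8 (0.0099) or the left E14 tooth of embryo 6 (0.039). Its direction was therefore not settled. From E13 to E16 *Bgn* rose by 1.17 ± 0.25 (adjusted p = 0.000541), or by 1.37 without the left E16 tooth of embryo 3. The difference between the steps was -1.27 ± 0.42 (adjusted p = 0.0444), just past the threshold. This call was lost in 18 of 21 fits that left out 1 tooth, and it stood at -1.07 (adjusted p = 0.000425) without the left E16 tooth of embryo 3.

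Asporin (*Aspn*) has a stretch of aspartates in place of the chain attachment sites of its relatives, and binds collagen and TGF-beta. The lowest, median and highest teeth had 35.4, 50.0 and 85.0 CPM at E13, 102, 149 and 175 CPM at E14, and 132, 199 and 305 CPM at E16. The E13 teeth lay below all others, and the E14 and E16 teeth overlapped. *Aspn* rose by 1.40 ± 0.18 (adjusted p = 4.06e-06) to E14 and by 0.53 ± 0.18 (adjusted p = 0.0253) from E14 to E16. The second call was lost without the right E14 tooth of embryo 2, the lowest of its stage (0.48, adjusted p = 0.0521), and was kept without the left E16 tooth of embryo 3 (0.44, adjusted p = 0.0409). The difference between the steps was -0.86 ± 0.30 (adjusted p = 0.0582) and was called at -0.96 (adjusted p = 0.0139) without the tooth of embryo 3. It was also called without the left E13 tooth of embryo 3 (adjusted p = 0.0208) and without the right E14 tooth of embryo 2 (adjusted p = 0.0370).

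Among the class II genes, fibromodulin (*Fmod*) carries keratan sulfate, binds type I collagen and steers its crosslinking. Its lowest, median and highest levels were 15.1, 18.8 and 22.8 CPM at E13, 39.95, 49.4 and 63.9 CPM at E14, and 10.2, 49.1 and 84.5 CPM at E16. All E14 teeth were above all E13 teeth, and at E16 the low value was again that of the left tooth of embryo 3, with the other 6 teeth at 37.1 CPM or above. *Fmod* rose by 1.42 ± 0.25 (adjusted p = 0.000217) to E14. From E14 to E16 the value was -0.01 ± 0.24 (adjusted p = 0.977), and 0.18 (adjusted p = 0.351) without that tooth. The difference between the steps was -1.43 ± 0.42 (adjusted p = 0.0219), and -1.24 (adjusted p = 0.000488) without it. The call was lost without the right E14 tooth of embryo 3 (adjusted p = 0.0502) or the left E14 tooth of embryo 6 (adjusted p = 0.0612), the highest of their stage.

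Lumican (*Lum*), a keratan sulfate proteoglycan that orders collagen in the cornea, had the smallest change of the 9 from E13 to E14 and rose from E14 to E16. The lowest, median and highest teeth had 109, 112 and 141 CPM at E13, 129, 146 and 175 CPM at E14, and 170.3, 206 and 378 CPM at E16. Neighbouring stages overlapped, the E13 and E16 teeth did not, and the highest E16 value was that of the left tooth of embryo 3, above the next at 241 CPM. From E13 to E14 the value was 0.31 ± 0.13 (adjusted p = 0.0967). It was called at nearly the same size (0.31, adjusted p = 0.00658) in the fit without the left E16 tooth of embryo 3, which shares its estimate of the spread with the other stages. From E14 to E16 *Lum* rose by 0.63 ± 0.13 (adjusted p = 0.000692), or by 0.49 (adjusted p = 9.50e-05) without that tooth.

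Prolargin (*Prelp*) has an arginine-rich end that binds heparan sulfate and links basement membranes to the underlying collagen. Its lowest, median and highest levels were 4.20, 6.63 and 10.9 CPM at E13, 36.2, 45.9 and 58.4 CPM at E14, and 3.91, 15.9 and 22.6 CPM at E16. The E14 teeth lay above all teeth of the other stages, and E13 overlapped E16 through the left E16 tooth of embryo 3 at 3.91 CPM and the left tooth of embryo 8 at 9.85 CPM. *Prelp* rose by 2.76 ± 0.26 (adjusted p = 2.52e-08) to E14, a 6.76-fold change and the largest of the 9, and fell by 1.60 ± 0.24 (adjusted p = 1.64e-05) from E14 to E16. It remained higher at E16 than at E13 (1.16 ± 0.25, adjusted p = 0.000561). The difference between the steps was -4.36 ± 0.40 (adjusted p = 2.75e-08). It was called in all 21 fits that left out 1 tooth, between -4.48 and -4.17. A noncoding antisense gene, Gm15851, shares 9.68% of the exon bases of *Prelp*, and the strand setting of the counting is not given in the sources used here.

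Keratocan (*Kera*), best known from the cornea, was the only one of the 9 called lower from E13 to E14 and from E13 to E16. The lowest, median and highest teeth had 1.89, 4.43 and 8.62 CPM at E13, 0.346, 0.698 and 1.67 CPM at E14, and 0, 1.98 and 4.71 CPM at E16. Every E14 tooth was below every E13 tooth, and the E16 teeth ran from no count to the range of E13. *Kera* fell by 2.50 ± 0.59 (adjusted p = 0.00397) to E14. From E14 to E16 the value was 0.90 ± 0.60 (adjusted p = 0.285), and 0.41 (adjusted p = 0.626) without the left E16 tooth of embryo 3. The fall from E13 to E16, -1.60 ± 0.56 (adjusted p = 0.0255), was -2.09 (adjusted p = 0.00281) without that tooth. It was no longer called without the right E13 tooth of embryo 1 (adjusted p = 0.0523), the right E13 tooth of embryo 9 (adjusted p = 0.0649) or the right E16 tooth of embryo 7 (adjusted p = 0.0515). The difference between the steps, 3.40 ± 1.08 (adjusted p = 0.0372), lost its call in 7 of 21 fits that left out 1 tooth.

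At E16 teeth of the same embryo had similar counts of *Kera*. The right and left teeth of embryo 6 had 60 and 51 counts of *Kera*, those of embryo 8 had 2 counts and 0 counts, and the single teeth of embryos 7, 5 and 3 had 11, 55 and 100 counts. Over the 6 E16 teeth other than that of embryo 3, the absolute difference in log2(CPM + 1) had a median of 0.11 in the 2 pairs of teeth from 1 embryo and of 1.02 in the 13 pairs from different embryos. *Ogn* showed 0.09 and 0.36 in the same pairs, whereas for *Dcn* the pairs from 1 embryo differed more (0.40) than those from different embryos (0.24). At E14 the only pair of teeth from 1 embryo differed by 0.06 for *Kera*, against a median of 0.39 in the 20 other pairs, but by 0.42 against 0.31 for *Ogn*. With so few pairs these are descriptions and were not tested. For the tooth with no count of *Kera*, 3 counts, the limit that a count of 0 allows, would be 0.123 CPM, a bound on counting error only.

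Osteomodulin (*Omd*), a keratan sulfate proteoglycan of bone that binds mineral and integrins, rose most of all over the whole interval. Its lowest, median and highest levels were 4.745, 6.18 and 11.9 CPM at E13, 11.2, 15.5 and 20.3 CPM at E14, and 41.3, 55.1 and 90.5 CPM at E16. The left E13 tooth of embryo 3, at 11.9 CPM, was the only E13 tooth within the E14 range, and all E16 teeth were above all others. *Omd* rose by 1.14 ± 0.18 (adjusted p = 7.56e-05) to E14, by 1.94 ± 0.18 (adjusted p = 9.19e-09) from E14 to E16 and by 3.08 ± 0.19 (adjusted p = 2.55e-12), 8.44-fold, from E13 to E16. Without the left E16 tooth of embryo 3 the second change was 1.82. The difference between the steps, 0.81 ± 0.31 (adjusted p = 0.0891), was not called; without the right E14 tooth of embryo 3 it was 0.98, at an adjusted p of 0.04997.

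Of the class III genes, osteoglycin (*Ogn*), also named mimecan, is found in bone, cornea and vessel walls. The lowest, median and highest teeth had 15.4, 30.9 and 44.1 CPM at E13, 72.6, 80.6 and 115 CPM at E14, and 116, 175 and 249 CPM at E16. The stages did not overlap, although the lowest E16 tooth and the highest E14 tooth were only about 1 CPM apart. *Ogn* rose by 1.49 ± 0.20 (adjusted p = 4.88e-06) to E14 and by 0.97 ± 0.19 (adjusted p = 0.000373) from E14 to E16, and the difference between the steps, -0.52 ± 0.33, was not called (adjusted p = 0.324). Epiphycan (*Epyc*), a proteoglycan of growth plate cartilage, had between 0 and 5 counts in each of the 21 libraries, which is at the limit of detection since 3 counts were worth between 0.109 and 0.159 CPM. Moreover, 40.6% of its exon bases are shared with the noncoding gene Gm10754 on the other strand, so these few counts cannot be assigned to *Epyc* with certainty.

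Levels of different genes were compared per kb of exon. The length is that of all annotated exons of a gene merged, such as 5838 bases for *Dcn*, 6099 for *Bgn* and 2448 for *Lum*. The length of the transcripts present in the teeth was not measured, so the order between genes depends on this divisor. At E13 *Lum* was highest (48.5 ± 4.8 CPM per kb, SD, n = 7), followed by *Bgn* (38.1 ± 4.5), *Aspn* (23.3 ± 7.6), *Dcn* (16.4 ± 1.9) and *Ogn* (12.2 ± 4.3), and then by *Fmod*, *Omd*, *Kera* and *Prelp* between 5.76 and 1.90 CPM per kb. Each neighbour in this order overlapped the next over teeth, except that *Prelp* was apart from *Epyc* (0.0107). At E14 *Bgn* led (88.9 ± 16.2 CPM per kb), overlapping *Aspn* (61.5 ± 10.7), which overlapped *Lum* (60.3 ± 7.2). *Lum* was apart from *Ogn*, *Dcn* from *Fmod*, *Prelp* from *Omd*, *Omd* from *Kera* and *Kera* from *Epyc*.

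At E16 *Lum* (93.6 ± 29.1 CPM per kb), *Aspn* (89.1 ± 22.4), *Bgn* (85.8 ± 36.6) and *Ogn* (67.5 ± 16.9) followed each other with overlapping ranges. *Dcn* came next at 43.1 ± 9.5 and *Omd*, which stood below *Fmod* at E13 and E14, was above it at 26.2 ± 7.3 against 15.3 ± 7.0. Over the 7 teeth no 2 neighbours of this order were separated, and the order itself turned on the left tooth of embryo 3. In the other 6 teeth *Bgn* led with 97.5 ± 21.2 CPM per kb, ahead of *Lum* (83.5 ± 12.6) and *Aspn* (82.4 ± 14.9), whose ranges overlapped. There *Dcn* was apart from *Omd*, *Fmod* from *Prelp* and *Prelp* from *Kera*, and the other neighbours overlapped. The summed level of the 10 transcripts had a median of 564 CPM at E13, 1132 CPM at E14 and 1520 CPM at E16. *Bgn* made up a median of 41.6%, 45.8% and 38.5% of it, and 6.39% in the left E16 tooth of embryo 3.

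**Figure D3:**
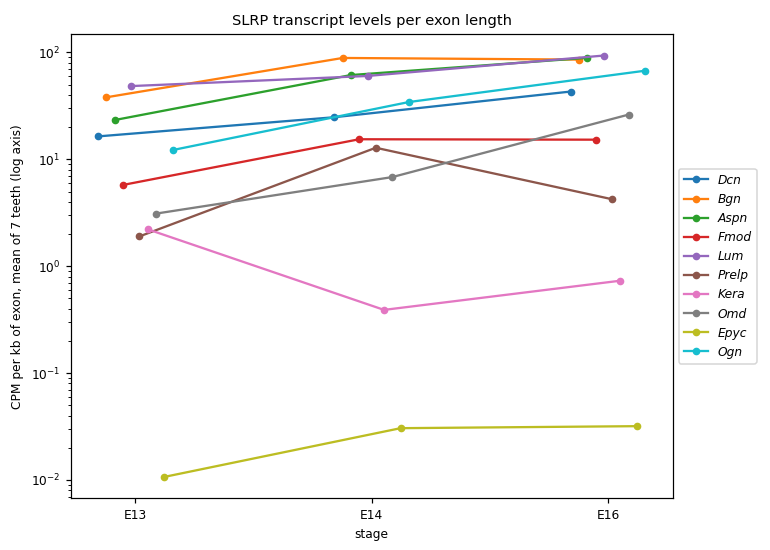
Mean level over 7 teeth per stage, in CPM per kb of exon on a log axis, with 1 line per gene. *Lum*, *Bgn* and *Aspn* run together at the top, *Omd* climbs from 3.11 to 26.2 CPM per kb, *Prelp* peaks at E14 and *Epyc* lies far below the rest.

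The members lie in 3 clusters and at 1 single place of the genome (GRCm38, GENCODE annotation). On chromosome 13 *Aspn* (49544443 to 49567565), *Omd* (49582462 to 49592822) and *Ogn* (49608046 to 49624501) follow each other on the plus strand, with gaps of 14.9 and 15.2 kb and no protein-coding gene wholly between them. On chromosome 10 *Dcn*, *Lum*, *Kera* and *Epyc* lie in that order, with gaps of 47.0, 34.2 and 30.4 kb, and on chromosome 1 *Prelp* and *Fmod* lie 116 kb apart on opposite strands. *Bgn* is on the X chromosome. The 3 neighbours on chromosome 13 rose at both steps and were highest at E16, whereas on chromosome 10 *Dcn* rose at both steps, *Lum* rose from E14 to E16, *Kera* fell from E13 to E14, and *Epyc*, at the limit of detection, was not tested. On chromosome 1 *Prelp* and *Fmod* both rose to E14, and from E14 to E16 *Prelp* fell and *Fmod* was not called. *Aspn*, *Omd* and *Ogn* lie within the span of *Cenpp*, a centromere gene of the other strand, which shares 7 exon bases with *Aspn* and none with the other two.

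The promoters of the chromosome 13 neighbours, which rose together, and of *Prelp*, which rose and fell, are shown for comparison. These are the 250 bases before the RefSeq start, 5′ to 3′ on the strand of the gene (GRCm38.p6), on the plus strand at chr13:49544193-49544442 (*Aspn*), chr13:49582212-49582461 (*Omd*) and chr13:49607765-49608014 (*Ogn*), and on the minus strand at chr1:133921402-133921651 (*Prelp*). Capitals mark the 4 motifs searched on both strands, namely the TATA box TATAAA, the Runx factor core TGTGGT, the E box sequence CAGATG and the CCAAT box.
Aspn: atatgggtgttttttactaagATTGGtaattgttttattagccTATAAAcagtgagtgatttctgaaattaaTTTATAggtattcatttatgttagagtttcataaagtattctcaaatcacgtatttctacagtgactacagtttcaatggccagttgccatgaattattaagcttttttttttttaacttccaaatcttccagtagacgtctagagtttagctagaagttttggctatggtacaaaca
Omd: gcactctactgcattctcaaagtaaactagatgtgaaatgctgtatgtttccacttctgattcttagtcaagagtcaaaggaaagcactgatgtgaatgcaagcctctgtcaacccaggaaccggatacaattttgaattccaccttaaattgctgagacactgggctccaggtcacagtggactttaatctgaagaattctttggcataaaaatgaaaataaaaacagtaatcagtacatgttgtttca
Ogn: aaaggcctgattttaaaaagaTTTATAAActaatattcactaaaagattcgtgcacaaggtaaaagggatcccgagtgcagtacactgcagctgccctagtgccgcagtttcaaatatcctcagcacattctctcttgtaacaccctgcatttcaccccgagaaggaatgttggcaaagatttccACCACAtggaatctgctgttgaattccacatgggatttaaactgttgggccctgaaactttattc
Prelp: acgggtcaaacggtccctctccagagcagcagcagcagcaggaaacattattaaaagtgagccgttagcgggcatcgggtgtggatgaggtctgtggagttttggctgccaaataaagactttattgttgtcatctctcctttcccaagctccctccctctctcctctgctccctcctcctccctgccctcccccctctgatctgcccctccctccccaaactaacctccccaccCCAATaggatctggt

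RefSeq promoters were given for 8 of the members, and for *Dcn* and *Lum* none was used here. TATAAA was found in 2 of the 8, *Ogn* and *Aspn*, and in 13.6% of 32851 promoter windows of all genes, each reaching from 250 bases before to 50 bases after the start. In *Ogn* the forward and reverse matches overlap as 1 run. The matches begin between position -229 and position -178 relative to the start in both genes. TGTGGT was found in *Ogn* and *Epyc* (16.8% of all windows), CAGATG in *Fmod* (17.2%) and CCAAT in *Fmod*, *Aspn*, *Kera* and *Prelp* (37.4%). In *Omd* and *Bgn* none of the 4 was found. The share of G and C in the 250 bases was 30.0% in *Aspn*, 38.4% in *Omd*, 42.0% in *Ogn*, 55.6% in *Prelp* and 64.4% in *Bgn*. A match is a stretch of letters and was not tested as a binding site.

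Likeness was measured as Pearson's r of log2 CPM over the 21 teeth, which share the stages and so most of the variation, and it is a description. *Aspn* and *Ogn* were each other's second closest genes (r = 0.958), *Omd* was the closest gene to *Dcn* (r = 0.968), and *Bgn* was the second closest to *Fmod* (r = 0.966). The closest gene to *Fmod* was *Pcolce* (r = 0.974), which encodes an enhancer of procollagen C-proteinase. Genes outside the family were closest to *Bgn* (*Tjp1* and *Zmiz1*, r = 0.976 and 0.974), *Omd* (*Tmod3* and *Slc16a7*, r = 0.982 and 0.979), *Prelp* (*Cxxc5* and *Usp2*, r = 0.967 and 0.957) and *Lum* (Gm42551 and *Atp8a1*, r = 0.940 for each). For *Dcn*, *Ogn* and *Aspn* the other closest genes were *Vav3* (r = 0.967), *Anxa3* (r = 0.963) and *Edil3* (r = 0.964). *Kera* had no close partner, its highest r being 0.814 and 0.813 with Gm2136 and Gm43399. Over the 20 teeth other than the left E16 tooth of embryo 3 the r of these pairs lay between 0.816 and 0.979 and other genes came first, among them *Tgfb1i1* for *Bgn* and *Fmod* (r = 0.981 and 0.974), *Cd44* for *Omd* (r = 0.984) and *Olfml2b* for *Ogn* (r = 0.978). *Omd* was then the fifth closest gene to *Dcn* (r = 0.962), so the order among close genes rests in part on 1 tooth.

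The collagens that SLRPs bind moved less uniformly. The list of 16 genes, all tested, holds the chains of fibril-forming collagens, of the fibril-associated *Col12a1* and *Col14a1*, and of collagen VI, which forms beaded filaments. Of these, 5 were higher and 1 lower at E14 than at E13, and 3 were higher and 4 lower at E16 than at E14. Without the left E16 tooth of embryo 3, in which they summed to 5498 CPM against 14550 to 18730 CPM in the other E16 teeth, these counts were 8 and 1, and 7 and 4. From E13 to E16, 8 were higher and 2 lower (11 and 2 without that tooth), with a median log2 fold change of 0.30. Counts of this and the following lists stand against the shares of all genes tested. These were 11.3% higher and 8.47% lower from E13 to E14, and 15% and 13.1% from E14 to E16. They were 21.6% and 19.6% from E13 to E16. *Col1a1*, the main fibril collagen of bone and dentin, rose by 1.15 ± 0.23 (adjusted p = 0.000249) over this interval, *Col5a3* by 3.05 ± 0.24 and *Col14a1* by 1.45 ± 0.20. *Col2a1*, the fibril collagen of cartilage, fell by 3.11 ± 0.21 (adjusted p = 1.21e-11), and *Col24a1* fell by 0.94 ± 0.22.

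Of the 28 enzymes that build or sulfate chondroitin, dermatan and keratan sulfate chains, 5 were higher and 2 lower at E14 than at E13 (9 and 2 without the left E16 tooth of embryo 3). At E16 none was higher and 7 were lower than at E14 by the edgeR test (2 and 8 without that tooth), and 0 were higher at an unadjusted p under 0.05 or by DESeq2. From E13 to E16, 4 were higher and 12 lower, with a median of -0.24. *Chst11*, a chondroitin 4-O-sulfotransferase, rose by 0.96 ± 0.11 over the interval, *Chst12* by 0.59 ± 0.22, and *B3gnt2*, at about 1 CPM, by 1.17 ± 0.37. *Csgalnact1*, which starts the chondroitin chain, fell by 0.99 ± 0.09, and *Chst2*, a sulfotransferase of keratan sulfate, went from 187 to 267 and then to 92.8 CPM (means), falling by 1.01 ± 0.15 from E13 to E16. *Chst5*, under 1 CPM at every stage, fell by 1.06 ± 0.38.

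Among 16 ligands and receptors that bind SLRPs, 7 were higher and none lower at E14 (0 lower at an unadjusted p under 0.05 in edgeR or by DESeq2), and 2 were higher and 2 lower at E16 than at E14 (6 and 3 without the left E16 tooth of embryo 3). From E13 to E16, 9 were higher and 1 lower. *P2rx7*, an ATP-gated channel engaged by biglycan, rose by 2.08 ± 0.23, *Itga2*, a subunit of a collagen-binding integrin, by 1.79 ± 0.09, and *Tlr4*, an innate immune receptor of biglycan, by 1.44 ± 0.26. *Bmp2* fell by 0.58 ± 0.18. Of 8 further SLRP family genes, 6 passed the filter and 3 of these were higher at E16 than at E13. These were *Podnl1* (2.61 ± 0.25), *Ecm2* (1.11 ± 0.18) and *Podn* (0.53 ± 0.18). *Chad* and *Nyx* were under 1 CPM in all 21 teeth.

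Other cell types that make SLRPs were followed with lists of markers. Of 12 osteoblast markers 9 were tested, and from E13 to E16, 4 rose (among them *Spp1*, *Dmp1* and *Alpl*) and *Phex* fell. Their summed level ranged from 681 to 1192 CPM at E13 and 673 to 1784 CPM at E14. At E16 it was 741 CPM in the left tooth of embryo 3 and 1217 to 1453 CPM in the other 6 teeth, all above the E13 teeth, and *Bglap2* and *Mepe*, late markers, stayed under 1 CPM in all teeth. Of 7 tendon markers, 4 rose from E13 to E16 (*Thbs4*, *Tnmd* and *Egr2* most) and 2 fell, *Scx* and *Cilp*. The tendon sum went from between 95.0 and 112 CPM to between 240 and 312 CPM in 6 of the E16 teeth, with 129 CPM in the left tooth of embryo 3. This sum follows largely *Thbs4*, which went from a mean of 5.04 to 139 CPM, while *Scx* went from 5.14 to 1.12 CPM. Of 8 cartilage markers tested, 4 rose (*Acan*, *Col9a3* and *Sox9* most) and 2, *Cnmd* and *Col9a1*, fell, with *Matn1*, *Matn3*, *Comp* and *Snorc* under 1 CPM throughout. Their sum was 107 to 149 CPM at E13 and 227 to 271 CPM at E16, apart from 116 CPM in the left E16 tooth of embryo 3. *Sox9* had the largest part in that sum, with a mean of 59.0 CPM at E13 and 141 CPM at E16. *Col2a1*, which fell, is not in this list. The part of these lists in the SLRP changes was not tested.

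Skeletal muscle markers summed to 1282 CPM in the left E13 tooth of embryo 7 and to between 35.2 and 209 CPM in the other E13 teeth, and 5 of 9 fell from E13 to E16. The median sum was 42.7 CPM at E13, 49.7 CPM at E14 and 44.8 CPM at E16, so it showed no fall. Among the fallen markers *Actc1* was at 13.1 ± 22.0 CPM (SD) at E13. Of the E13 teeth, the left tooth of embryo 7 had the highest *Ogn* (44.1 CPM) and the lowest *Lum* (109 CPM), and lay between the others for the remaining members that passed the filter. Of the blood vessel and immune lists, 2 of 7 endothelial markers (*Emcn* and *Pecam1*; 4 without the left E16 tooth of embryo 3) and 7 of 7 macrophage markers (*Csf1r*, *Mrc1* and *C1qc* most) were higher at E16 than at E13. Of 6 Schwann cell markers, 2 rose, *Mbp* and *Erbb3*, and 2 fell, *Sox10* among them. Dental mesenchyme markers were led by the falls of *Lhx8* (-1.56 ± 0.08), *Msx1* (-1.32 ± 0.15) and *Pax9* (-0.80 ± 0.10) and the rise of *Dlx2* (1.05 ± 0.24), and dental epithelium markers by *Shh*, *Krt5* and *Krt17* (5.20 ± 0.35, 2.28 ± 0.17 and 2.16 ± 0.15).

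**Figure D4:**
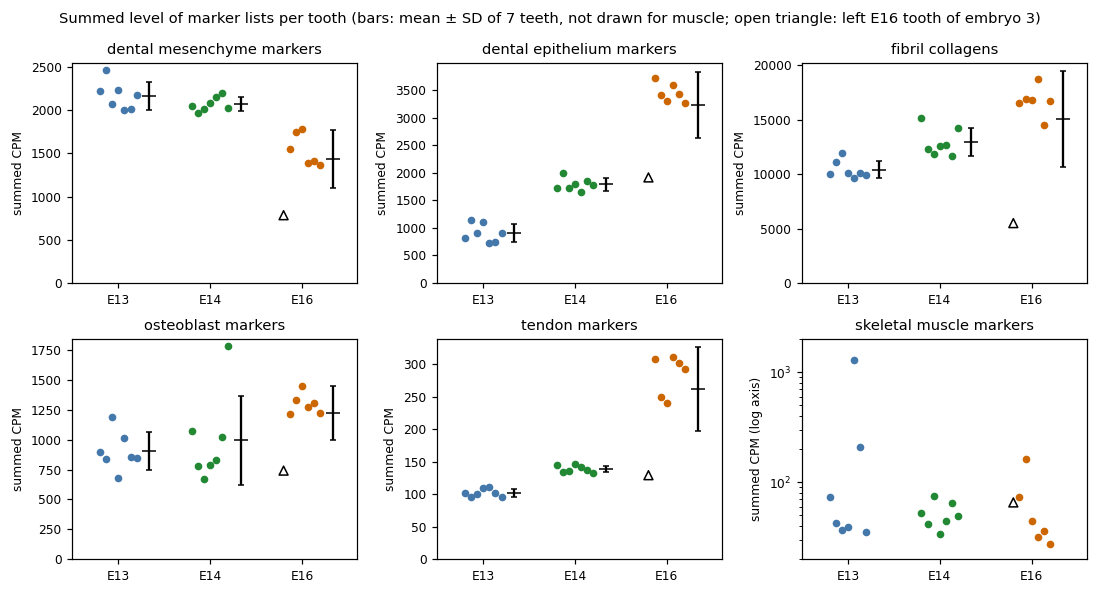
Summed CPM of 6 gene lists in every tooth (dots; bars are the mean ± SD of 7 teeth, and the muscle panel has a log axis and no bars). The open triangle, the left E16 tooth of embryo 3, lies below the other 6 E16 teeth in all panels but that of muscle, where the left E13 tooth of embryo 7 is highest at 1282 CPM.

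The salmon table, with teeth of E13, E15 and E16, lists 7 of the members, *Dcn*, *Bgn*, *Fmod*, *Lum*, *Prelp*, *Kera* and *Epyc*, of which 6 passed its filter. The E15 teeth carry another label field than the E13 and E16 teeth (age in place of embryonic day). Whether they were processed as a separate set is not given in the sources used here. If they were, stage and set cannot be told apart for them. Between E13 and E15, 5 of the 6 were higher and none was called lower by edgeR (1, *Kera*, at an unadjusted p under 0.05, and 0 by DESeq2), where 18.3% of the 13447 genes tested were called higher and 8.49% lower. Between E15 and E16 *Prelp* alone was called, and lower, where 3.64% of all genes were called higher and 2.69% lower. Between E13 and E16, 5 of the 6 were called higher in this table, against 21.7% of all genes, and none lower (0 at an unadjusted p under 0.05 or by DESeq2), against 14.7%.

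*Prelp* was at 28.1, 25.3, 35.7, 64.5, 51.4 and 68.4 CPM in the E15 teeth of embryos 1, 3, 4, 5, 6 and 8, above all E13 teeth of the table (4.98 to 12.7 CPM). It was higher at E15 than at E13 by 2.50 ± 0.30 (adjusted p = 1.11e-06) and lower at E16 than at E15 (-1.33 ± 0.29, adjusted p = 0.00466), and the ranges overlapped only between the lowest E15 tooth and the highest E16 tooth, at 25.3 and 26.4 CPM. *Bgn* was at 384, 460, 391, 901, 849 and 1008 CPM in the same order of teeth. All of these lay above the E13 teeth (208 to 318 CPM), and the lowest of embryos 5, 6 and 8 was well above the highest of embryos 1, 3 and 4. *Dcn* (240, 288, 145, 523, 392 and 563 CPM) and *Fmod* (46.3, 61.4, 53.4, 90.4, 102 and 124 CPM) had the same 3 teeth highest. *Lum* did not, with 302, 307, 165, 256, 242 and 236 CPM.

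The teeth of embryos 5, 6 and 8 had TMM factors from 0.905 to 0.927 and those of embryos 1, 3 and 4 from 1.021 to 1.058, and the part of this difference in the levels was not tested. Against E13, *Dcn* was higher at E15 by 1.69 ± 0.23, *Fmod* by 1.84 ± 0.29, *Bgn* by 1.30 ± 0.30 and *Lum* by 0.85 ± 0.18, with adjusted p values of 6.69e-06, 3.61e-05, 0.00223 and 0.00102. From E15 to E16 the values were -0.24 ± 0.23 for *Dcn*, -0.42 ± 0.28 for *Fmod*, -0.11 ± 0.30 for *Bgn* and 0.16 ± 0.18 for *Lum*, none of them called. *Kera* was at or under 2.325 CPM in 5 E15 teeth and at 6.05 CPM in that of embryo 8, and its change from E13 was -1.83 ± 0.79 (adjusted p = 0.0909), or -2.93 (adjusted p = 0.0114) without the tooth of embryo 8. *Epyc* had 31 counts in the tooth of embryo 5, 11 in that of embryo 1 and 0 to 3 in the other E15 teeth.

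**Figure D5:**
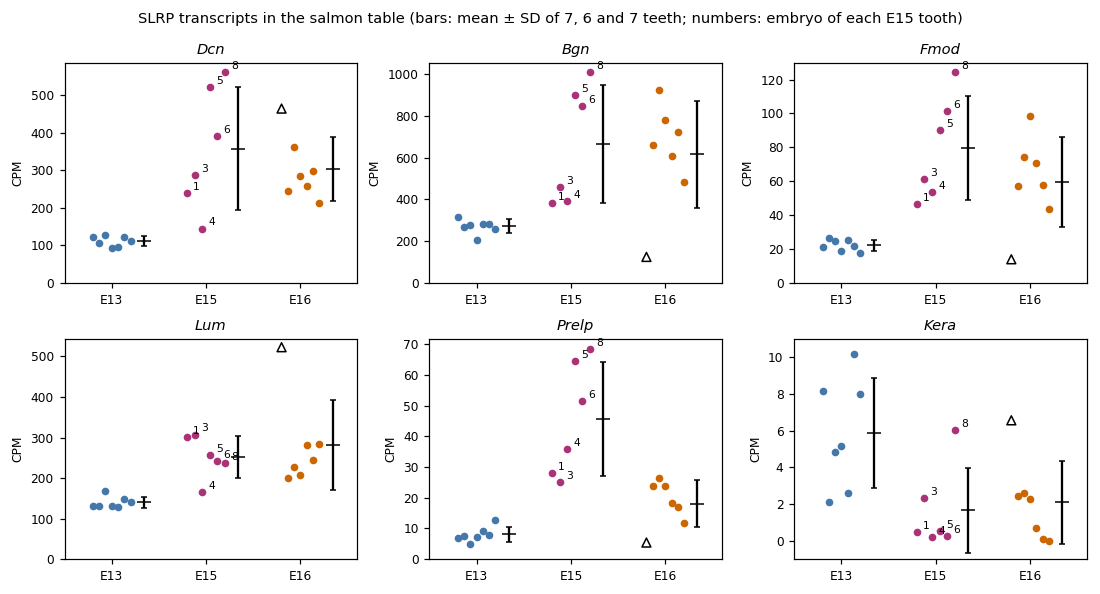
CPM of 6 SLRP transcripts in the salmon table at E13 (7 teeth), E15 (6 teeth, numbered by embryo) and E16 (7 teeth), with the mean ± SD as bars and the left E16 tooth of embryo 3 as an open triangle. The E15 teeth of embryos 5, 6 and 8 are highest for *Dcn*, *Bgn*, *Fmod* and *Prelp* but not for *Lum*, and *Prelp* is lower at E16 than at E15.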

How the data were processed

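The members, gene lists and tests were chosen with earlier results of these data known. Reads were trimmed and quality filtered by the authors (Trimmomatic, AfterQC, FastQC), mapped to GRCm38 by STAR, and counted per gene by HTSeq; the deposited counts are raw. The deposited salmon table holds estimated counts in whole numbers (per the labels, Salmon 0.99.0 after Trimmomatic 0.39); it does not list *Ogn*, *Aspn* and *Omd*. One E13 column of the count table names no embryo, and 1 labelled E15 tooth was not used here. Stage, embryo and side were taken from the labels.

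Counts of the 21 teeth were fitted in edgeR 4.0.16 (R 4.3.3) with TMM scaling, the filterByExpr filter and a factor for stage; p values were adjusted over all 19101 genes (13447 in the salmon table, fitted separately). The coefficient of variation between teeth was 21.2%. No 2 libraries of a stage agreed within counting noise (chi-square per degree of freedom at least 7.21). GENCODE annotation gave symbols and exon lengths, with 233 of 52636 identifiers unmatched. All members are named; of each list, up to 3 called genes that rose most and 3 that fell most from E13 to E16; for likeness, the 2 closest genes (prior count 1). Alternatives were other scaling (RLE), filters (any count, or at least 10 counts in at least 7 libraries) and DESeq2 1.42.0, sums per embryo, side or embryo number as a factor, only the stages compared, the salmon table and each tooth left out. Tables and figures were made with Python 3.11.15, numpy 2.4.6, pandas 2.3.3 and matplotlib 3.10.9. Values of some single marker genes are not reported here. Protein sequences were not analysed here, and mouse chromosome 18 was left out of the promoter windows.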

Additional observations from a re-analysis of the deposited data

Results flagged for a closer look

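The teeth of 1 gene and stage formed a set, with 33 sets in all. In 3 of them the distance of 1 tooth to its nearest neighbour was a large part of the whole range. Chance gives about 1 in 20, but the sets share the same teeth and are not independent. The count of 3 is a description and was not tested against that rate. At E16 *Lum* was at 378 CPM in the left tooth of embryo 3, and the next tooth was at 241 CPM. At E13 *Omd* was at 11.9 CPM in the left tooth of embryo 3, and the next tooth was at 7.52 CPM. In the salmon table *Kera* at E15 was at 6.05 CPM in the left tooth of embryo 8, and the next tooth was at 2.325 CPM. The distances were 0.659, 0.614 and 0.637 of the ranges.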

How the results depend on the processing

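The numbers of members called from E13 to E14 (8), E14 to E16 (6) and E13 to E16 (9) stayed within 1.5 times under every alternative run on the HTSeq counts. With 1 tooth left out they were 8 to 9, 5 to 6 and 8 to 9. Without the left E16 tooth that stood apart from the other E16 teeth, 9, 6 and 9 were called. The shares of all genes called were then 30.4%, 34.3% and 48.7%, against 19.7%, 28.1% and 41.3% in the main fit. The salmon table, which lists fewer members, gave 5 from E13 to E16. The 4 members called for the difference between the steps became 2 with side of the jaw as a factor (*Fmod* and *Prelp*), and 1 to 5 with 1 tooth left out. Over all genes tested, the share called for this difference also fell with side as a factor, from 13.7% to 11.7%. It was 20.8% without the left E16 tooth that stood apart, where 5 members were called. For the other fits with 1 tooth left out the share is not given here. *Lum* from E13 to E14 was also called with only these 2 stages fitted (adjusted p = 0.00261). *Kera* from E13 to E16 lost its call under DESeq2 (adjusted p = 0.0569) and with counts summed per embryo (adjusted p = 0.0667). For the difference between the steps, the call of *Bgn* was also lost under DESeq2 (adjusted p = 0.0627) and with counts summed per embryo (adjusted p = 0.0724), and *Aspn* was called under DESeq2 (adjusted p = 0.0383). The cause of these changes was not tested.

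With 1 tooth left out, values from E14 to E16 that were not called crossed 0, *Bgn* between -0.17 and 0.15 and *Fmod* between -0.17 and 0.18. From E15 to E16 in the salmon table the same held for *Bgn* (-0.23 to 0.07), *Lum* (-0.062 to 0.23) and *Kera* (-0.27 to 1.43). There 5 to 6 members were called from E13 to E15 with 1 tooth left out, and DESeq2, with no such filter, called 6, *Epyc* included (adjusted p = 0.0423).

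Embryo numbers name different embryos at each stage, so teeth of different stages share only a number. Their deviations from the stage means correlated between -0.09 and 0.18 in the 15 pairs with the same number. With embryo number as a block, 6, 6 and 7 members were called for the 3 comparisons and 3 for the difference between the steps, while over all genes the share called fell as well, from 19.7% to 8.78%, 28.1% to 25.4%, 41.3% to 27.3% and 13.7% to 9.56%. *Bgn* (1.06, adjusted p = 0.0549) and *Kera* (-1.89, adjusted p = 0.128) from E13 to E14, and *Bgn* (0.86, adjusted p = 0.0933) and *Kera* (-1.11, adjusted p = 0.269) from E13 to E16, were then not called. For the steps, *Bgn*, *Fmod* and *Kera* lost their calls, and *Aspn* (adjusted p = 0.0207) and *Ogn* (adjusted p = 0.0433) gained one. Mean levels of the 10 members moved by less than 1 SD under other scaling or with embryos averaged first. Depth limits *Epyc* and, at E14 and E16, *Kera*.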

Other observations

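Of 10 proteinases tested that can cut SLRPs, 5 were higher and 2 lower at E16 than at E13 (7 and 2 without the left E16 tooth of embryo 3). Over all genes tested, 21.6% were called higher and 19.6% lower in this comparison. *Mmp13*, collagenase 3, went from a mean of 0.169 ± 0.225 CPM (SD, n = 7) at E13 to 0.665 ± 0.388 CPM at E14 and 23.9 ± 12.5 CPM at E16, and rose by 5.16 ± 0.48 (log2 fold change ± SE, edgeR adjusted p = 9.15e-09) from E14 to E16. From E13 to E16 *Mmp9*, a gelatinase, rose by 2.56 ± 0.28 and *Htra1*, a serine proteinase, by 2.11 ± 0.18. *Bmp1*, which cleaves the propeptide of biglycan, fell by 0.21 ± 0.07 (adjusted p = 0.0255), and its relative *Tll2*, at 2.02 ± 1.94 CPM at E13, fell by 2.90 ± 0.73. *Mmp3* and *Gzmb* were under 1 CPM in all teeth.

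Of 20 other chondroitin and heparan sulfate proteoglycans tested, 6 were higher and 6 lower at E16 than at E13 (10 and 6 without the left E16 tooth of embryo 3), with a median log2 fold change of 0.10. The shares of all genes called higher and lower in this comparison were 21.6% and 19.6%. *Vcan*, the large hyaluronan-binding proteoglycan versican, rose from 1880 ± 181 to 3604 ± 182 CPM (0.94 ± 0.08). *Acan*, the aggrecan of cartilage, reached 2.19 ± 0.95 CPM at E16 (2.66 ± 0.45), and *Srgn* rose by 1.30 ± 0.37. The glypicans *Gpc6* and *Gpc3* fell by 1.22 ± 0.06 and 0.86 ± 0.13, and *Ncan* by 1.68 ± 0.42.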
